A study of Mus musculus with 8 samples.

Results

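Growth hormone reaches the liver through 10 genes examined here: the receptor Ghr, the kinase Jak2, the transcription factors Stat5a and Stat5b, the feedback inhibitors Socs2 and Cish, the repressors Bcl6 and Cux2, and the secreted products Igf1 and Igfals. They were chosen by gene symbol from the pathway as it is known in liver, with earlier results of these data known. All 10 were found among the 35976 genes of the deposited tables. RNA was measured by sequencing in whole mouse liver, in 5 libraries of genotype CTRL (titled WT) and 3 libraries of genotype OPA1 LKO, in which Opa1 was deleted in hepatocytes, and every library came from mice on a high fat diet. The product of Opa1 is the GTPase that fuses the inner mitochondrial membrane. The sources used here do not name the strain, the age or sex of the mice, the Cre line or promoter behind the deletion, the alleles the controls carry, or whether each library is 1 animal. What the p-values measure is thus the spread among these samples, part of which may be technical.

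Growth hormone binds a receptor dimer on the hepatocyte, and the kinase JAK2 attached to the receptor then phosphorylates STAT5, which enters the nucleus. STAT5B is the main form in hepatocytes. Among the genes it switches on are Igf1, the growth factor that liver releases into blood, Igfals, which encodes the acid-labile subunit that keeps IGF-I in a large circulating complex, and Cish and Socs2, whose products damp the receptor. Male rodents secrete the hormone in pulses and females more evenly, and this pattern sets many sex differences of liver, with BCL6 more abundant in males and CUX2 in females.

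Opa1 was at 39.9, 51.9, 44.0, 57.6 and 46.9 CPM in CTRL replicates 1 to 5 and at 24.7, 34.4 and 34.0 CPM in OPA1 LKO replicates 1 to 3, where CPM is a gene's count scaled to a common library size. Every OPA1 LKO library lay below every CTRL library, with a log2 fold change of -0.63 ± 0.17 (SE), and the adjusted p by edgeR was 0.0539. Which exons were deleted is not named, and reads from other cells or from undeleted exons cannot be told apart from those of hepatocytes. The libraries held 16076392 to 20471256 counts. CTRL replicate 1 stood apart: Apoe was at 134 CPM in it and at 20759 to 33179 CPM in the other 7 libraries, and the X-inactivation RNA Xist was at 8.13 CPM against at most 0.18 CPM elsewhere. The Y-linked genes Ddx3y, Eif2s3y, Kdm5d and Uty had counts in each of the 8 libraries. What this library is cannot be told from the labels, which bears on every CTRL value, so results that rest on it are also given without it. The 8 hepatocyte markers, among them Alb and Ttr, summed to 59658 to 103790 CPM in CTRL, against 72185 to 92473 CPM in OPA1 LKO, so the label of liver matched the data.

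The 2 forms of the Ghr transcript that carried counts end differently, and their coding sequences are shown where they part because the receptor level below divides along this line. Ghr lies on the minus strand of chromosome 15 (chr15:3317755-3583352, GRCm38.p6). NM_001048178.2 ends in its exon 9 and codes for 297 residues, the soluble growth hormone binding protein without a membrane span. NM_001286370.1 skips that exon, reads on through 11 exons and codes for the full receptor of 650 residues. The coding part of exon 9 of each, from the GENCODE M21 transcripts paired to these accessions, is given 5′ to 3′.

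Short form, chr15:3327607-3327686, minus strand: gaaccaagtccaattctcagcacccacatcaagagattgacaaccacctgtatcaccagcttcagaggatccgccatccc

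Full-length form, chr15:3325898-3325988, minus strand: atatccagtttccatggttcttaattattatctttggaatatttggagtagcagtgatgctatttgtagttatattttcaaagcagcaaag

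STAT5 binds the palindrome TTCNNNGAA, which BCL6 can also recognise and which reads the same on both strands. It was looked for in RefSeq promoter windows of 300 bases (250 before to 50 after each start, GRCm38.p6), which 9 of the 10 genes have, Socs2 being without an entry. Of all 32851 windows 8.30% held a match and 0.457% held at least 2. Cish had 2 matches in its window, Igfals 1 in each of 2 of its 3 windows, and Bcl6 1 and 3 in its 2 windows. The windows of Ghr, Jak2, Stat5a, Stat5b, Cux2 and Igf1 held no match, which says only that these letters are not in those stretches. The stretches around the matches are printed for the 3 genes that hold them, with every match in capitals. A match is a description and not evidence of binding.

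Cish, chr9:107296654-107296683, plus strand: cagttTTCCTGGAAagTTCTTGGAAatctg

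Igfals, outer start, chr17:24877596-24877625, plus strand: ccgatctataatTTCTCAGAAaagaggctg

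Igfals, middle start, chr17:24878111-24878230, plus strand: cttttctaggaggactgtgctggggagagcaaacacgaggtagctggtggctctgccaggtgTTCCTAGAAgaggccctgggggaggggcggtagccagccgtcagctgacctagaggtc

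Bcl6, inner start, chr16:23981344-23981473, minus strand: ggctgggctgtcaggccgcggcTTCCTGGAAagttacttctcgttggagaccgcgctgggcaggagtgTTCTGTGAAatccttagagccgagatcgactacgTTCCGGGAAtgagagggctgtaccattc

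Bcl6, outer start, chr16:23988943-23989002, minus strand: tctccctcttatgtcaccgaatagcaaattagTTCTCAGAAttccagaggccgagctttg

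All 10 genes passed the filter on low counts, and none of them passed the test between the genotypes. With p-values from edgeR's quasi-likelihood fit, adjusted by Benjamini-Hochberg over 14036 genes and called under 0.05, 0 of the 10 passed, against 6.03% of all genes tested. At an unadjusted p under 0.05, 6 of the 10 were reached, against 23.8% of all genes, and 5 of these 6 were lower in OPA1 LKO. The 10 genes were chosen with earlier results of these data known, so their shares beside those of all genes are descriptions only. The estimate was below 0 in 6 of the 10, against 53.1% of all genes. DESeq2 called 2, Cish and Stat5a, both lower, against 10.6% of its genes in either direction (5.42% lower, 5.21% higher), and limma on log2(TPM + 1) called 0 of the 9 it tested, Cux2 being under its level filter. With CTRL replicates 1 and 3 both left out, edgeR called 3, Ghr, Cish and Stat5a, all lower, against 21.3% of genes in either direction and 10.4% lower. That pair had been chosen with values of these data known and holds the lowest Ghr levels among the controls, so these calls support nothing. The median log2 fold change of the 10 was -0.35 and that of all genes tested was -0.03, and on log2(TPM + 1) these medians were -0.15 and 0.09. Among the 846 genes called, 469 were higher and 377 lower, a split that was 307 and 76 with limma on log2(TPM + 1) and 547 and 270 with upper-quartile scaling in edgeR.

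Ranked by TPM, which corrects for transcript length, the 10 genes spanned from a highly abundant receptor to a barely detected repressor. Over the 8 libraries the mean level was 170.6 ± 41.7 TPM for Ghr (SD, n = 8), 93.2 ± 12.2 for Igf1 and 47.9 ± 11.8 for Igfals. The ranges of these 3 genes over the libraries did not overlap. Socs2 followed at 11.9 ± 5.97 TPM, Bcl6 at 8.37 ± 4.72, Stat5b at 6.24 ± 0.998, Cish at 4.39 ± 3.31, Stat5a at 4.10 ± 1.18 and Jak2 at 2.56 ± 0.416. Each of these 6 except Jak2 overlapped with the next in that order. Cux2 was lowest at 0.360 ± 0.471 TPM, with a range that stayed below that of Jak2.

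The genes also differed in how steady they were among controls. The coefficient of variation of CPM over the 5 CTRL libraries was 9.88% for Stat5b, 11.8% for Jak2, 13.0% for Stat5a and 13.3% for Igf1. It was 23.3% for Igfals, 34.0% for Ghr, 46.3% for Socs2, 50.2% for Bcl6, 55.4% for Cish and 71.5% for Cux2, the last at few counts. The signal carriers and the main secreted product thus varied less between control libraries than the feedback inhibitors and the repressors.

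**Figure D1:**
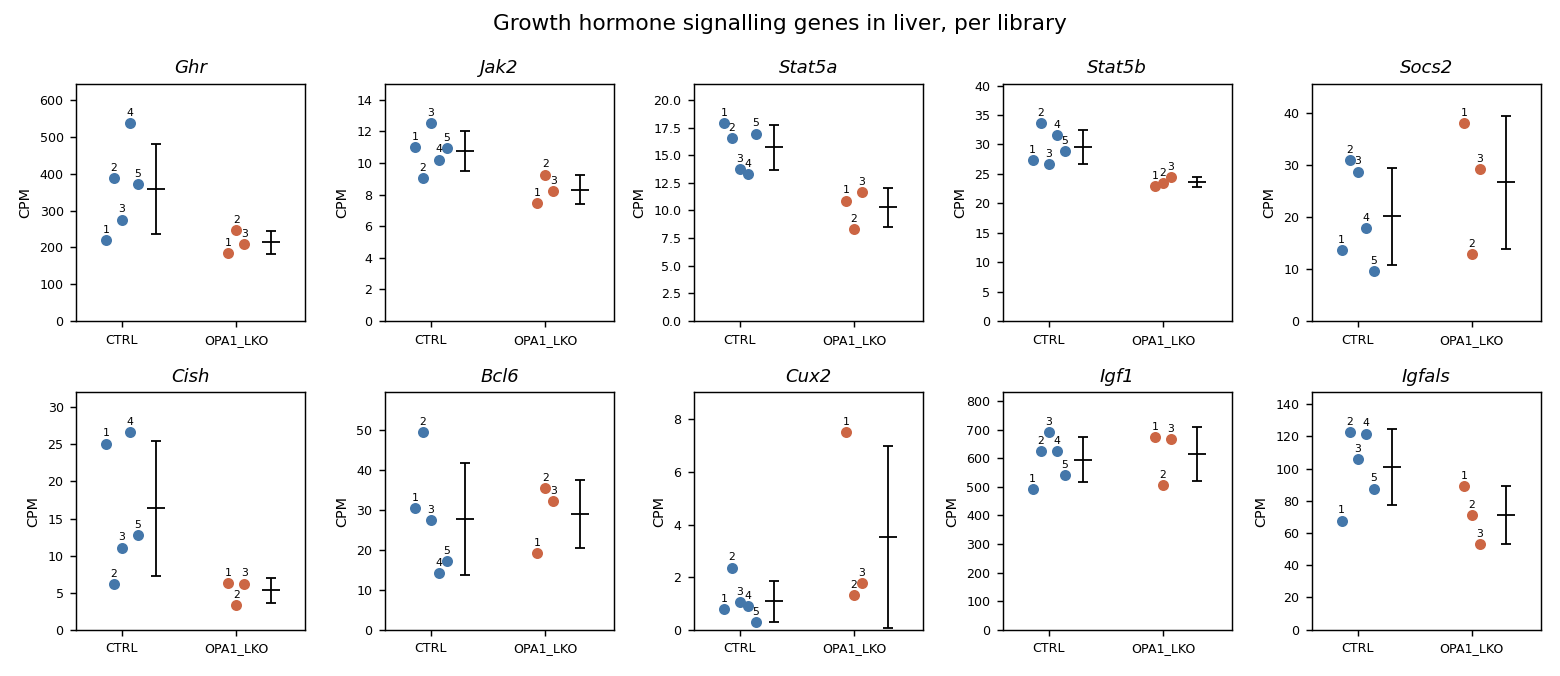
Level in CPM of each of the 10 genes (vertical axes, from 0) in the CTRL and OPA1 LKO libraries (points, numbered by replicate), with the mean and SD of each group beside them. Stat5a and Stat5b are the 2 genes whose groups do not overlap, and Cux2 is high in OPA1 LKO replicate 1.

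Ghr, the receptor, was at 219.1, 388.6, 275.1, 537.5 and 371.7 CPM in CTRL replicates 1 to 5 and at 184.3, 247.1 and 209.7 CPM in OPA1 LKO replicates 1 to 3. The OPA1 LKO libraries all lay at the low end, but CTRL replicate 1 fell among them, so the groups overlapped. The mean was 358.4 ± 122 CPM (SD, n = 5) for CTRL, against 213.7 ± 31.6 CPM (SD, n = 3) for OPA1 LKO. The log2 estimate came to -0.75 ± 0.27 (SE), at an adjusted p of 0.132 by edgeR. It lay between -1.01 and -0.42 over the 17 other settings. In TPM the means were 189.0 ± 40.8 for CTRL and 139.9 ± 22.7 for OPA1 LKO (SD). Without CTRL replicate 1 the log2 fold change was -0.88 and the adjusted p 0.0353 by edgeR with Benjamini-Hochberg adjustment, and Ghr was then the 1 member called, against 12.2% of genes in that fit (5.59% lower). CTRL replicate 1 is also the control with the lowest Ghr. No other single library, when left out, brought Ghr past the threshold.

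Both Ghr forms had lower means in OPA1 LKO, and neither their levels nor their shares passed. The short form NM_001048178.2, with the ending shown above, was at 129.3, 169.7, 109.7, 154.2 and 127.2 TPM across the CTRL libraries, beside 106.9, 127.0 and 96.4 TPM in OPA1 LKO. The full-length form NM_001286370.1 was at 31.8, 59.5, 28.3, 75.3 and 59.8 TPM across the CTRL libraries, beside 24.2, 38.8 and 26.5 TPM in OPA1 LKO. CTRL replicates 1 and 3 had the low full-length levels among the controls and lay within the OPA1 LKO range. NM_010284.3, which codes for the same receptor starting from the first exon of the short form, was listed at 0 in all 8 libraries. The full-length share of Ghr TPM was 26.2% ± 6.14 in CTRL (SD, n = 5) and 21.1% ± 2.50 in OPA1 LKO (SD, n = 3), with an exact two-sided permutation p of 0.250. For the level the exact permutation p was 0.0714 for the short form and 0.179 for the full-length form, and 0.571 for both after adjustment over the 32 tests on Ghr and Igf1 transcripts. The smallest p that the 56 divisions of 8 libraries into 5 and 3 allow is 0.0357. The split between forms is RSEM's estimate and not a direct count.

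**Figure D2:**
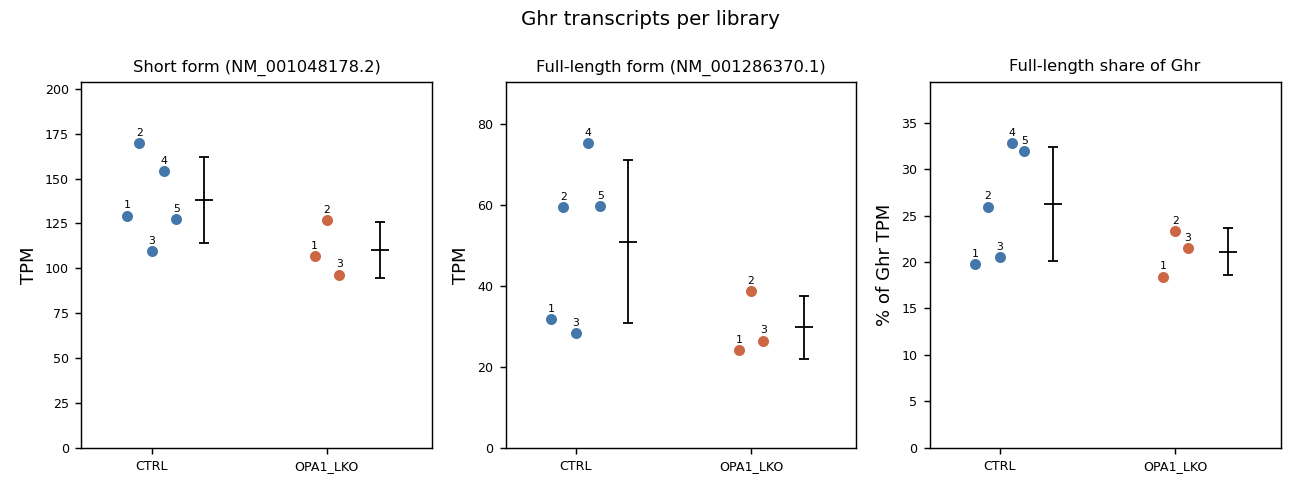
TPM of the short and the full-length Ghr transcript and the full-length share of Ghr TPM in percent (vertical axes, from 0), per library, numbered by replicate, with group mean and SD. The OPA1 LKO libraries lie within 24.2 to 38.8 TPM for the full-length form, and CTRL replicates 1 and 3 lie there too.

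Jak2, the kinase bound to the receptor, was at 10.99, 9.05, 12.5, 10.2 and 10.9 CPM across the CTRL libraries, beside 7.48, 9.26 and 8.23 CPM in OPA1 LKO. OPA1 LKO replicate 2 lay above CTRL replicate 2, so the groups overlapped. The log2 estimate came to -0.37 ± 0.15 (SE), at an adjusted p of 0.180 by edgeR, and it lay between -0.45 and -0.13 over the 17 other settings.

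Stat5a and Stat5b were the 2 of the 10 genes whose groups did not overlap in CPM. In TPM the groups of both genes overlapped. The TPM means in CTRL and OPA1 LKO were 4.58 ± 1.25 and 3.31 ± 0.48 (SD) for Stat5a. For Stat5b they were 6.55 ± 1.17 and 5.73 ± 0.33. Stat5a was at 17.9, 16.6, 13.8, 13.3 and 16.96 CPM across the CTRL libraries, beside 10.9, 8.28 and 11.7 CPM in OPA1 LKO. The log2 estimate was -0.61 ± 0.17 (SE), at an adjusted p of 0.0577 by edgeR. Stat5b was at 27.3, 33.6, 26.7, 31.6 and 28.9 CPM across the CTRL libraries, beside 22.9, 23.5 and 24.4 CPM in OPA1 LKO. Its estimate was -0.33 ± 0.12 (SE), at an adjusted p of 0.138 by edgeR. Over the 17 other settings the estimate lay between -0.69 and -0.35 for Stat5a and between -0.40 and -0.15 for Stat5b. Lower levels in every OPA1 LKO library than in every CTRL library were found in 8.41% of all genes tested, against these 2 of the 10. DESeq2 called Stat5a (adjusted p = 0.0144), and edgeR called it with CTRL replicates 1 and 3 both left out (adjusted p = 0.0419, Benjamini-Hochberg) and in 0 of the 8 fits without a single library.

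Stat5a and Stat5b are near-identical genes that lie head to head on chromosome 11, 346 bases apart, and share reads. Their expected counts were fractional in every library (336.52 and 514.48 in CTRL replicate 1), while the sums were whole in all 8 (851 there), so reads had been divided between them by estimation. The summed level does not depend on that division. It was 45.2, 50.2, 40.4, 44.9 and 45.8 CPM in CTRL and 33.8, 31.8 and 36.1 CPM in OPA1 LKO. The groups did not overlap in the summed CPM either. For the sum edgeR gave a log2 estimate of -0.42 ± 0.12 (SE) at an adjusted p of 0.0674, and 0.0634 without CTRL replicate 1. No other scaling was tried for the sum, and in TPM the groups overlapped for each gene and for both added. Summing was chosen after the values were seen.

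The feedback inhibitors Cish and Socs2 lay on opposite sides of 0. Cish, a SOCS-box protein that competes with STAT5 for the receptor, was at 25.1, 6.18, 11.1, 26.7 and 12.7 CPM across the CTRL libraries, beside 6.33, 3.33 and 6.21 CPM in OPA1 LKO. CTRL replicate 2 was as low as the OPA1 LKO libraries, and CTRL replicates 1 and 4 stood highest. The CTRL mean was 16.4 ± 9.06 CPM, against 5.29 ± 1.70 CPM for OPA1 LKO. The log2 fold change of -1.63 ± 0.47 (SE) was larger than that of 96.5% of all genes in size. Its adjusted p was 0.0707 by edgeR and 0.00645 by DESeq2. Without CTRL replicate 2 the log2 fold change was -1.84 with an adjusted p of 0.0376 by edgeR, and Cish was then the 1 member called, against 3.19% of genes in that fit (1.39% lower and 1.79% higher). Without CTRL replicate 1 the values were -1.42 and 0.0643.

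Socs2, the SOCS protein whose loss gives oversized mice, was at 13.6, 30.96, 28.7, 17.8 and 9.62 CPM across the CTRL libraries, beside 38.0, 12.9 and 29.1 CPM in OPA1 LKO. The OPA1 LKO values spread over most of the CTRL range, and replicate 1 lay above it. The log2 estimate came to 0.40 ± 0.41 (SE), at an adjusted p of 0.591 by edgeR, and it was 0.05 without OPA1 LKO replicate 1. Cish and Socs2 are both fast targets of STAT5, and the difference between their estimates was not tested.

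Neither repressor passed the test. Bcl6, which binds the same palindrome as STAT5 and holds down part of its female-biased targets, was at 30.5, 49.5, 27.5, 14.1 and 17.2 CPM across the CTRL libraries, beside 19.2, 35.5 and 32.1 CPM in OPA1 LKO. The groups overlapped, with a log2 fold change of 0.06 ± 0.37 (SE) and an adjusted p of 0.941 by edgeR, and it lay below 0 without CTRL replicate 4 (-0.09), CTRL replicate 5 (-0.07) or OPA1 LKO replicate 2 (-0.12) and with the replicate block. On log2(TPM + 1) it was 0.56, also short of the threshold (adjusted p = 0.548, limma).

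Cux2, the homeobox repressor typical of female liver, was at 0.80, 2.36, 1.06, 0.89 and 0.29 CPM across the CTRL libraries, beside 7.53, 1.30 and 1.78 CPM in OPA1 LKO. Only OPA1 LKO replicate 1 stood above the CTRL range, with 163 counts against 5 to 42 in the other 7 libraries. The log2 estimate came to 1.71 ± 0.66 (SE), at an adjusted p of 0.156 by edgeR, and it was 0.50 without that library.

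Neither secreted product passed the test. Igf1 was at 491.0, 625.02, 692.6, 626.6 and 542.0 CPM across the CTRL libraries, beside 673.8, 506.6 and 668.8 CPM in OPA1 LKO. The 2 groups covered nearly the same range, with a log2 fold change of 0.05 ± 0.17 (SE) and an adjusted p of 0.888 by edgeR, and the estimate lay between -0.02 and 0.21 over the 17 other settings. Of its 14 transcripts none passed the exact permutation test after adjustment, and 1 share, that of NM_001111276.1, reached the smallest possible p of 0.0357. Several were split unevenly between libraries by the estimation, such as NM_010512.5 at 0 to 25.8 TPM within CTRL alone.

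Igfals was at 67.7, 122.7, 105.7, 121.6 and 87.5 CPM across the CTRL libraries, beside 88.9, 71.1 and 53.0 CPM in OPA1 LKO. The OPA1 LKO libraries lay in and below the lower part of the CTRL range, in which CTRL replicate 1 was lowest. The log2 estimate came to -0.51 ± 0.23 (SE), at an adjusted p of 0.217 by edgeR, and without CTRL replicate 1 it was -0.62 with an adjusted p of 0.0693.

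**Figure D3:**
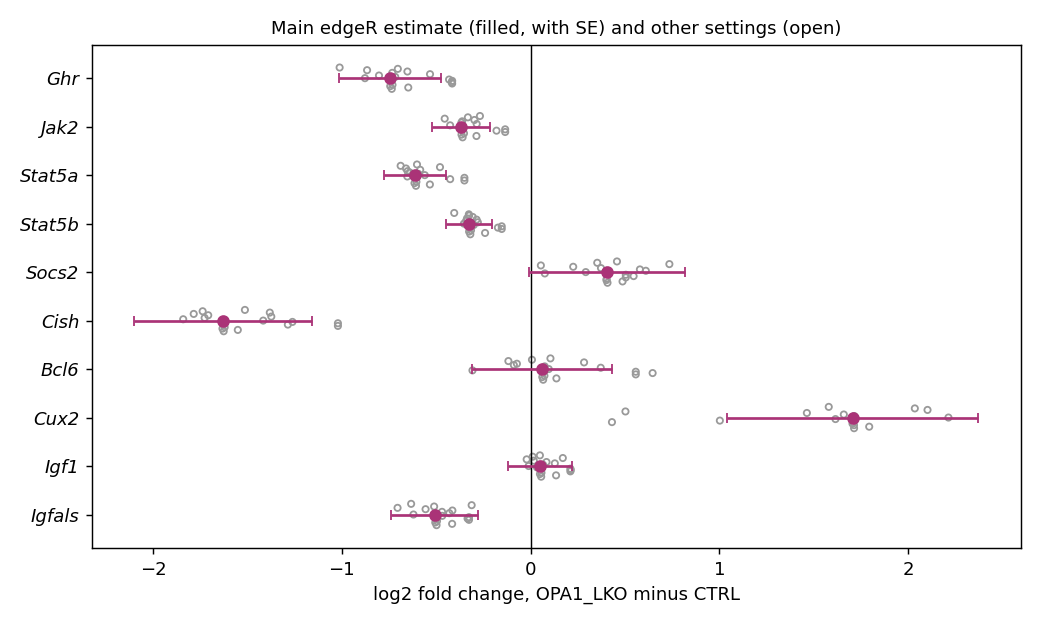
Log2 fold change of OPA1 LKO against CTRL (horizontal axis) for the 10 genes, as the edgeR estimate with its SE (filled) and under the other settings (open). Cish, Ghr, Jak2, Stat5a, Stat5b and Igfals lie below 0 in all settings shown, while Bcl6 and Igf1 fall on both sides.

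Other genes around the pathway were read from lists drawn from general knowledge of liver. These lists too were chosen with earlier results of these data known, so their counts are descriptions. Of 26 other genes of growth hormone, JAK and STAT signalling, 0 passed the edgeR test. At an unadjusted p under 0.05 there were 4, against 23.8% of all genes, and DESeq2 called 1, against 10.6%. They had a median log2 fold change of -0.14. On log2(TPM + 1) that median was 0.03, and the median of all genes tested was 0.09. Irs1, an adaptor of the insulin and IGF-I receptors, stood at a log2 fold change of -0.49 ± 0.17 (SE), Pias3, a STAT inhibitor, at -0.46 ± 0.17, and Igf1r, the IGF-I receptor itself, at 0.86 ± 0.32 with a mean of 1.42 CPM in CTRL.

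Of the 7 tested genes named as IGF binding proteins, 2 rose and 0 fell, against 3.34% of all genes higher. Their median log2 fold change was 0.87, but 0.21 without OPA1 LKO replicate 2 and 0.50 with the replicate block. Igfbp1, which insulin holds down, was at 15.1, 3.65, 5.93, 6.65 and 19.6 CPM across the CTRL libraries, beside 83.5, 127.2 and 88.5 CPM in OPA1 LKO. Igfbp1 rose by 3.29 ± 0.46 (SE) on the log2 scale (adjusted p = 0.00445, edgeR). Igfbp2 rose from 264.5 ± 166.1 to 906.4 ± 79.98 CPM (adjusted p = 0.0393, edgeR), a call that was lost without CTRL replicate 2 (0.0873), CTRL replicate 5 (0.0539) or any one OPA1 LKO library (0.0788 to 0.154). Igfbp3, the partner of Igfals and IGF-I in the large complex, was at 24.5 ± 8.84 and 44.8 ± 29.3 CPM, and Igfbp7 at 84.2 ± 22.2 and 164.5 ± 62.2 CPM, neither past the threshold.

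Of 17 liver transcription factors that act with the growth hormone pattern, 2 fell and 0 rose, against 2.69% of all genes lower, with a median log2 fold change of -0.24. Foxa2, a pioneer factor of hepatocytes, fell from 29.2 ± 7.02 to 14.7 ± 2.72 CPM (adjusted p = 0.0233, edgeR), and Cebpa, which drives hepatocyte genes, from 341.2 ± 61.8 to 193.6 ± 23.5 CPM (adjusted p = 0.0286, edgeR). Both calls were lost on log2(TPM + 1) (adjusted p = 0.0895 and 0.151, limma) and without any one OPA1 LKO library, that of Foxa2 also without CTRL replicate 5 (0.0522) and that of Cebpa without CTRL replicate 4 (0.0613). Pparg and Ppara, the lipid-sensing receptors, were at -0.71 ± 0.21 and -0.67 ± 0.20 on the log2 scale and did not pass.

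Genes whose sex bias depends on the hormone's pattern were read as a female-biased and a male-biased list. Of the 24 female-biased genes tested, out of 28, 9 reached the level of the count filter in fewer than 3 CTRL libraries, so they entered the test only with OPA1 LKO counts, and 8 of these 9 were called higher. Being near 0 in CTRL, they could hardly be called lower, and their number supports nothing. Of all 893 tested genes that missed that level in CTRL, 117 were called higher and 0 lower. Of the other 15 genes, 2 rose and 0 fell (Cyp2c40, adjusted p = 0.00241, and Slc22a26, adjusted p = 0.0128, edgeR), against 2.68% of all genes that reached that level in CTRL. This division was made, and these 2 genes were named, after the values were seen. The levels of the genes near 0 in CTRL are given as a description. Cyp3a41a, a female-type steroid hydroxylase gene, was at 0 to 0.27 CPM across the CTRL libraries, beside 26.04, 8.19 and 28.6 CPM in OPA1 LKO. Cyp2c69 was at 0.11 to 0.56 CPM across the CTRL libraries, beside 6.37, 4.81 and 5.33 CPM in OPA1 LKO, and Sult1e1, the estrogen sulfotransferase, at 0.21 to 0.78 and at 5.22, 3.73 and 7.81 CPM. Cyp3a44 had 2 counts over CTRL and 101 over OPA1 LKO. Cux2 was high in OPA1 LKO replicate 1 alone, and a link between its level and these genes was not tested.

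Of the 23 male-biased genes tested, out of 25, 1 fell and 0 rose, against 2.69% of all genes lower, with a median log2 fold change of -0.80. C4a, the sex-limited complement gene and a near-copy of C4b with which reads may be shared, fell from 44.1 ± 6.45 to 15.1 ± 3.97 CPM (adjusted p = 0.00297, edgeR). The major urinary protein gene Mup7 was at 332, 4873, 285.4, 4327 and 624.7 CPM across the CTRL libraries, beside 85.3, 163.9 and 125.0 CPM in OPA1 LKO (adjusted p = 0.0564, edgeR), so the 2 groups did not overlap but the CTRL libraries differed widely. Mup3 and Mup12 also had every OPA1 LKO library below every CTRL library without passing (adjusted p = 0.0671 and 0.0590, edgeR). Of the 23 genes 5 lay apart in this way, against 8.41% of all genes tested. Reads are shared within the Mup, Cyp2c and Cyp3a families. Without CTRL replicate 1, 7 of the male-biased genes fell and 1 rose, against 5.59% of all genes lower in that fit. Without CTRL replicate 3, 3 fell, against 265 of 13915 genes lower in that fit. Without OPA1 LKO replicate 2, 3 fell, against 238 of 14308. DESeq2 called 7 as lower, against 5.42% of its genes.

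**Figure D4:**
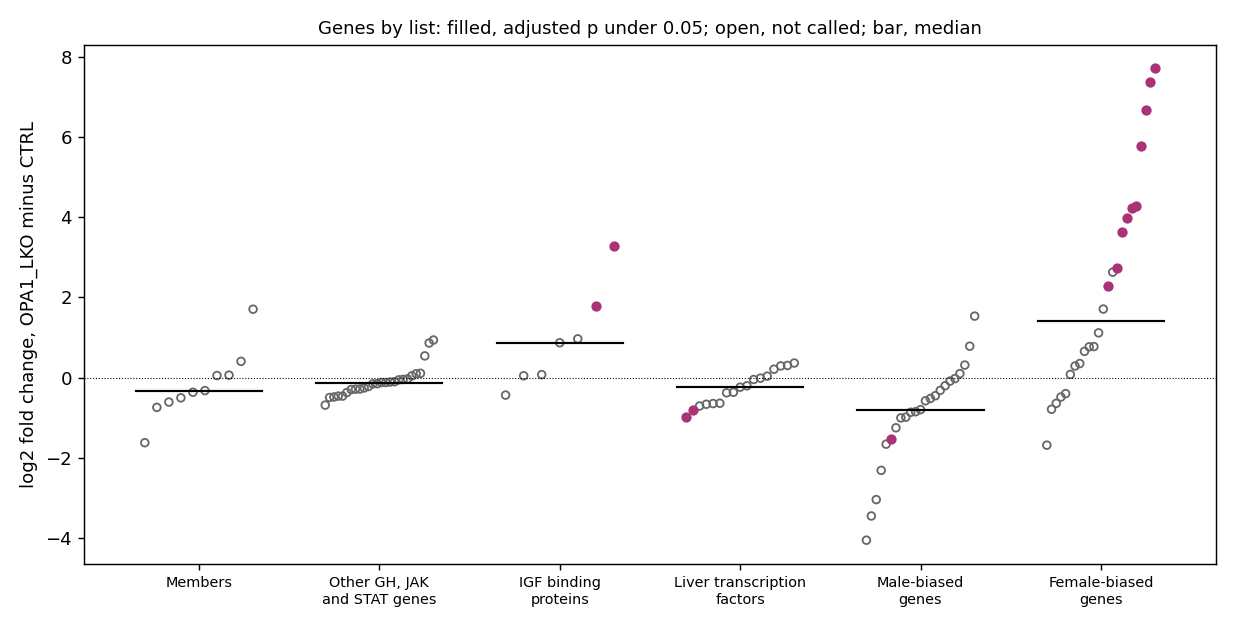
Log2 fold change of OPA1 LKO against CTRL (vertical axis) for each tested gene of the 6 lists (horizontal axis), filled where the adjusted p by edgeR was under 0.05, with the list median as a bar. None of the 10 signalling genes is filled, and 8 of the 10 filled female-biased genes are near 0 in CTRL.

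Markers of other liver cells moved in part with the genotype. In bulk tissue fewer cells of a type and less RNA per cell cannot be told apart. The 8 bile duct markers summed to 17.5 to 72.6 CPM in CTRL and 141.3 to 204.9 CPM in OPA1 LKO, with 3 of 7 tested called higher (Spp1, Sox9 and Krt7), against 3.34% of all genes. Spp1 weighed most in these sums, with 1984 counts over CTRL and 9529 over OPA1 LKO. Sox9 had 138 and 308 counts, Krt7 77 and 221 and Epcam 347 and 477. The estimate was below 0 for 2 of the 7. The count called higher was 7 without CTRL replicate 3, whose sum was the highest among controls, against 447 of 13915 genes in that fit. It was 1 without OPA1 LKO replicate 3, against 159 of 14469 genes. The 8 stellate cell markers summed to 360.7 to 396.1 and 428.0 to 780.6 CPM, with 0 called by edgeR and 0 by DESeq2. At an unadjusted p under 0.05 by edgeR there were 3 of the 8, against 23.8% of all genes. The 8 macrophage markers summed to 201.6 to 1015 CPM in CTRL, highest in CTRL replicate 1, and 190.8 to 316.2 CPM in OPA1 LKO. The endothelial sums were 140.6 to 241.5 and 147.5 to 263.5 CPM and the lymphocyte sums 10.8 to 26.2 and 17.0 to 28.1 CPM. Il7r, at under 0.64 CPM in CTRL, was called higher, a call lost without CTRL replicate 2, 4 or 5 or any one OPA1 LKO library (adjusted p of 0.0510 to 0.143 by edgeR), with the replicate block and with no count filter. Among the hepatocyte markers Tat was called higher. No marker was at 0 in all libraries. The part of these cells in the levels of Ghr, Cish or the STAT5 genes was not tested.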

How the data were processed

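Liver RNA of 8 mouse samples was sequenced with a stranded mRNA kit, per the labels' protocols. Per the submitters' processing notes, mm10 was the build, and RSEM, STAR, MultiQC and StringTie were among the tools. Their versions and the annotation release are not given here. Expected counts, not normalised, and TPM values, corrected for length and scaled to a common total, were deposited by the authors for genes and for transcripts. RSEM divides reads shared by similar genes or transcripts by estimation.

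Gene counts were rounded, filtered with filterByExpr (minimum count 10 in a typical library, 15 in total), scaled by trimmed mean of M-values and tested with edgeR 4.0.16 (quasi-likelihood, group only, R 4.3.3), with Benjamini-Hochberg adjustment over 14036 genes. SE was derived from the fold change and its statistic. CPM uses the scaled library sizes. DESeq2 1.42.0, limma 3.58.1 on log2(TPM + 1) or log2(TPM + 0.1) for genes with a mean of at least 0.5 TPM, other scalings, no filter, a replicate block and left-out libraries were alternatives. Transcripts with a mean of at least 0.1 TPM were compared by exact permutation. The edgeR procedure was tested on simulated data.

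The members and lists were chosen with earlier results of these data known, and the lists come from general knowledge of liver. Named genes were all members, the 4 of smallest p and every called gene (where at most 6) of each other list, Opa1, the sex chromosome genes, and for Ghr, Igf1 and Cish the 3 genes of at least 1 CPM most like them. Apoe was chosen after its values were seen. One gene that this rule names is not reported here. Marker genes not named are given by their counts and sums.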

Additional observations from a re-analysis of the deposited data

Results flagged for a closer look

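In CTRL replicate 1, Apoe was at 133.8 CPM while the other 4 CTRL libraries lay between 25200 and 33179 CPM, and the gap exceeded what Dixon's test allows for 5 samples. In the same library Xist reached 8.13 CPM, whereas the other CTRL libraries held 0 to 0.11 CPM, a gap that exceeded it as well. The test was run on the CTRL levels of 33 genes, and chance flags about 1 in 20 groups. Apoe was among them because its values had been seen, so its flag supports nothing and the rate does not apply to it. None of the 10 growth hormone signalling genes had a CTRL library this far from the rest.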

How the results depend on the processing

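Of the 10 signalling genes, 0 were called by edgeR, 2 by DESeq2, 0 to 1 without any one library and 3 with CTRL replicates 1 and 3 both left out. That pair was chosen with values of these data known and holds the lowest control Ghr, so its calls support nothing. With the replicate number as a block 0 were called. Bcl6 turned to -0.31 with that block and ranged from -0.12 to 0.37 without any one library, and Igf1 from -0.021 (without OPA1 LKO replicate 1) to 0.17, also lying below 0 without CTRL replicate 1 (-0.010). Over all genes 1605 were called by DESeq2, 383 and 367 with limma on log2(TPM + 1) and log2(TPM + 0.1), 418 with log2(TPM + 1) and no filter, 367 with the replicate block, 198 to 1701 without any one library and 2919 without CTRL replicates 1 and 3. DESeq2 called 1 of the other signalling genes, 4 transcription factors and 7 male-biased genes, all lower. With CTRL replicates 1 and 3 left out these counts were 3, 4 and 14 in either direction, the 14 being 11 lower and 3 higher. That fit also called 4 binding proteins, all higher, and 17 female-biased genes, 14 higher and 3 lower. Of all genes in it 10.9% were called higher and 10.4% lower. Limma on TPM called 0 transcription factors in each of its 3 forms, and the replicate block called 1 of them and 3 male-biased genes. Without any one library, 1 to 3 binding proteins, 0 to 4 transcription factors, 1 to 8 male-biased, 8 to 14 female-biased and 0 other signalling genes were called in either direction. The highest counts came without CTRL replicate 1, with 7 male-biased genes lower and 1 higher, and 12 female-biased genes higher and 2 lower. Of all genes in that fit 6.65% were called higher and 5.59% lower. Over genes that reach the filter level in CTRL, a limit added after seeing the data, 2 female-biased genes were called in place of 10. The cause of the other shifts was not tested. The deviations of same-numbered libraries were weakly correlated (r of 0.05 to 0.18, with 2 of the 3 OPA1 LKO libraries closest to their own number). So few libraries cannot tell whether the numbers pair the samples. The full-length Ghr share differed (OPA1 LKO minus CTRL) by -6.70 to -3.44 percentage points without any one library. Depth was thinnest for Cux2, at 5 to 163 counts a library.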

Other observations

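Transcripts of the other signalling genes were examined after their values were seen. For Stat5a, XM_006532722.1 was at 3.44, 4.31, 1.90, 2.55 and 3.12 TPM in CTRL and at 0, 0.57 and 0.56 TPM in OPA1 LKO. NM_001164062.1 of the same gene was at 1.59, 0.48, 1.49, 0.74 and 0.94 TPM in CTRL and at 3.27, 1.12 and 2.65 TPM in OPA1 LKO. The share of XM_006532722.1 in Stat5a was 67.4% ± 13.0 in CTRL (SD, n = 5) and 12.3% ± 10.8 in OPA1 LKO (SD, n = 3), with no overlap. For Stat5b, XM_006532723.2 was at 4.83 to 7.03 TPM in CTRL and 4.53 to 4.73 TPM in OPA1 LKO. For Bcl6, XM_017316855.1 was at 6.98, 1.74, 3.50, 1.75 and 2.85 TPM in CTRL and at 1.27, 0.35 and 0.93 TPM in OPA1 LKO, while NM_009744.3 was at 1.09, 14.7, 2.01, 1.16 and 1.06 and at 5.26, 13.2 and 9.07 TPM. Over the 70 tests on transcripts of the 10 genes, 6 reached the smallest exact permutation p of 0.0357 and 0 passed after adjustment, where the lowest adjusted p was 0.417. These are RSEM's divisions of shared reads at low levels.

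The genes whose log2 CPM over the 8 libraries ran most like that of Ghr, out of 11632 compared, were Pdcd4 (Pearson r = 0.992), Sucnr1 (0.992) and Dcun1d1 (0.989). None of these 3 was called, with edgeR log2 fold changes of -0.91, -1.39 and -0.59. Closest to Igf1 were Ptrhd1 (0.971), Stk25 (0.947) and H1f0 (0.945), with fold changes between 0.00 and 0.06 on the log2 scale. Closest to Cish were Zfp655 (0.945), Fbxo45 (0.939) and Foxq1 (0.927). Zfp655, at 36.6 ± 5.69 CPM in CTRL, was called lower in OPA1 LKO at 22.6 ± 2.10 CPM (adjusted p = 0.0301, edgeR). These genes were picked as the highest of many, so the coefficients are descriptions.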
